A study of Mus musculus with 6 samples.

Results

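Rab proteins are small GTPases that mark the membranes of the secretory and endocytic pathways. Each Rab switches between a GTP-bound form, which recruits effector proteins that tether, move or fuse vesicles, and a GDP-bound form. Exchange factors load GTP, many proteins with a TBC domain speed its hydrolysis, and a lipid anchor added by Rab geranylgeranyl transferase holds the active protein on the membrane. In melanocytes, the pigment-producing cells of skin and hair, the family is known above all for the building and transport of melanosomes.

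The members described here are the mouse genes named Rab followed by a number and at most 1 letter, apart from Rab38, Rab32 and Rab27a, the best-known melanosome Rabs. They are 55 of the 22180 genes that had a value, each read from 1 probe set with a single gene symbol. Rab4b was found only on probe sets shared with another gene and is not among them. Of the 55, 52 had a mean signal above 5.20 on the log2 scale, the 40th percentile of probe set means, below which a signal is called dim here. The 3 dim members were Rab37, Rab39 and Rab42.

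Gene expression was measured on 6 Affymetrix arrays of 2 immortal mouse melanocyte lines, 3 arrays each. The Sox10 LacZ/+ line carries 1 copy of Sox10, a transcription factor of the neural crest lineage, as a LacZ allele and was derived from mice of 3 days of age that lack Ink4a-Arf. The control is the line melan-Ink4a-Arf-1, which the labels also call melan-a. Its source mice were Cdkn2a tm1RDp/tm1RDp (Cdkn2a is the Ink4a-Arf locus), and it is called wild type here for its intact Sox10. Both lines thus lack Ink4a-Arf, both are on a C57BL/6J background, and both were grown with 200 nM of the phorbol ester TPA and 200 pM of cholera toxin. Each genotype is 1 line, so genotype and line cannot be told apart. By Xist and the Y-linked genes given below, the wild-type line reads as male and the Sox10 LacZ/+ line as female. Sex too cannot be told apart from genotype for any gene. The labels do not say whether the replicates are separate cultures, so p-values reflect the spread of these arrays alone, which may be technical. Differences are Sox10 LacZ/+ minus wild type on the log2 scale, and a gene passed where its p from limma, adjusted by Benjamini-Hochberg across the 22180 genes, was below 0.05.

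The array medians lay between 5.72 and 5.78, and wild-type replicate 2 stood apart from its group. There 261 genes deviated by 2-fold or more from its fellow wild-type arrays. The same count was 22 and 54 for replicates 1 and 3 and at most 2 for a Sox10 LacZ/+ array. The 10 melanocyte markers were all above the dim limit in both lines, with Mitf and Kit higher and Tyr and Dct lower in the Sox10 LacZ/+ line. Of 10 fibroblast markers 4 were higher in the Sox10 LacZ/+ line (Pdgfrb, Col1a2, Dcn and Fbln1). The mean signal of the 10 was 7.70 to 7.71 per Sox10 LacZ/+ array against 6.14 to 6.19 in wild type. The other 6 did not pass. They were Postn (1.10), Pdgfra (0.15), Col3a1 (0.10), Lum (−0.10, dim in both lines), Thy1 (−0.14) and Col1a1 (−0.20). Of the other marker lists, none of 7 keratinocyte genes passed, Cd68 was higher of 6 leukocyte genes, Vwf was higher of 5 endothelial genes, and Pmp22 and S100b were lower of 5 Schwann cell genes. The part of these differences in the Rab results was not tested. Sox10 itself differed by −0.18 (adjusted p 0.213 by limma) and did not pass.

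Most Rab genes, like most genes on the arrays, differed little between the lines, and a few differed by a large factor. Rab6b, the neuron-enriched form of the Golgi Rab6, and Rab7b, a Rab of transport from late endosomes to the Golgi, had the largest falls in the Sox10 LacZ/+ line, by 9.21-fold and 7.05-fold. The size for Rab6b is that of the probe set used, and a second one fell less (−0.86). With both averaged Rab6b differed by −2.03, a smaller fall than that of Rab7b (−2.82). Rab34 fell by 2.23-fold. Rab39b fell by 2.17-fold as read, to a dim signal in the Sox10 LacZ/+ line. Rab27b, a secretory granule Rab and the closest relative of Rab27a, was the only member to rise more than 2-fold, by 3.08-fold. Of the 55 members 11 passed, where 13.4% of all genes did. By direction 4 were higher (7.46% of all genes) and 7 lower (5.92% of all genes), and 44 did not pass.

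At least 2-fold were 5 members, 1 higher and 4 lower, where 3.53% of all genes reached this size (1.94% higher, 1.59% lower). The difference of 49 of the 55 was smaller than 1.5-fold in either direction, as was that of 20529 of all 22180 genes. The sign was negative for 36 members and positive for 19, with a median difference of −0.10, against 0.001 over all genes, of which 49.6% were negative. For 27 members (49.1%) the highest array of one line lay below the lowest of the other, against 31.6% of all genes. Above the dim limit were 52 of the 55 members and 14668 of the 22180 genes. Neither this share nor that of 2-fold differences was taken among genes above the limit alone. Among genes above the dim limit, 21.2% of the Rab members and 18.7% of all genes passed. Wild-type replicate 2 was the lowest wild-type array for 29 of the 55 members (52.7%, against 36.3% of all genes), and without it 6 members were higher and 13 lower, while the share of all genes that passed was 19.0%.

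**Figure D1:**
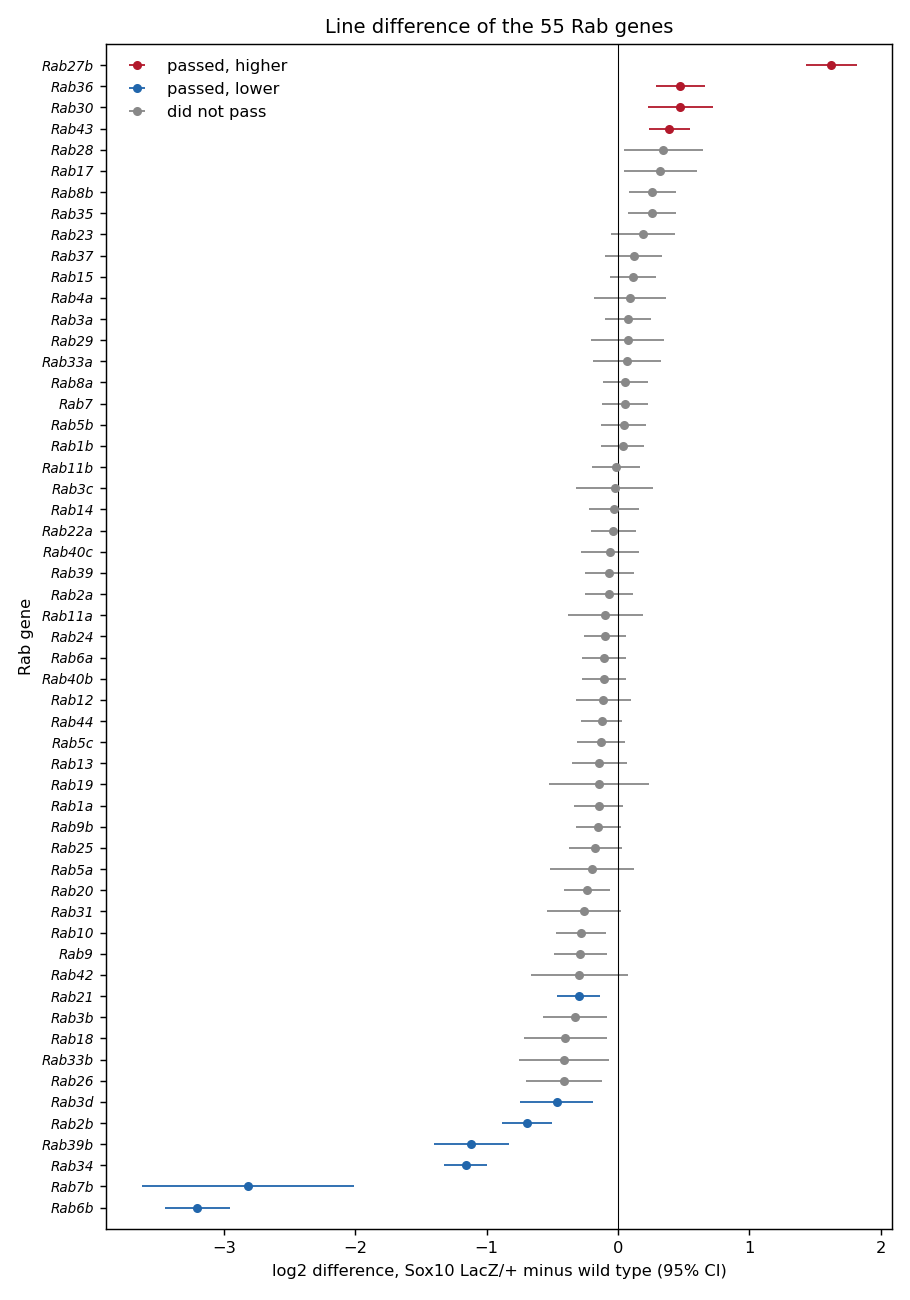
Difference of each of the 55 Rab genes between the lines, Sox10 LacZ/+ minus wild type, on a log2 scale (x axis), with the 95% confidence interval of the limma fit and genes in order of their difference (y axis). Most points lie within 1.5-fold of 0, while Rab6b, Rab7b, Rab34, Rab39b and Rab27b lie beyond 2-fold.

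Of 15 Rabs of the endoplasmic reticulum and Golgi, 3 rose, 3 fell and 9 missed the threshold, where 13.4% of all genes passed. Differences between the role groups were not tested. Rab6b (Entrez 270192; chromosome 9, build GRCm38.p6) had signals of 9.33, 9.47 and 9.48 on the wild-type arrays and of 6.01, 6.38 and 6.27 on the Sox10 LacZ/+ arrays. The groups lay far apart, and no array fell between them. The means were 9.42 ± 0.08 and 6.22 ± 0.19 (SD, n = 3 each), a difference of −3.20 (SE 0.11, adjusted p 7.2e-07 by limma), which leaves 10.9% of the wild-type signal. A second probe set of Rab6b also read lower in the Sox10 LacZ/+ line, by 0.86 on the log2 scale, so the probe sets share the direction and differ in the size. With both averaged the difference was −2.03. The sources used here do not say which part of the transcript each covers.

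Rab6a, the widely expressed form that serves traffic from the Golgi back to the endoplasmic reticulum, showed no such gap. Its signals were 10.91, 10.90 and 11.01 in wild type and 10.81, 10.81 and 10.88 in the Sox10 LacZ/+ line. The arrays did not overlap, but the difference of −0.11 (95% confidence interval −0.27 to 0.06, adjusted p 0.436 by limma) did not pass.

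The start regions of these related genes are shown because the genes moved so differently. Each line gives the 120 bases before the start of a RefSeq transcript on build GRCm38.p6, 5′ to 3′ on the gene's strand. For neither gene is this start the outermost of the gene. Both strands were searched for 4 strings of letters. The string CACGTG and the variant of it CATGTG are known from sites of MITF and related factors, while ACAAAG is known from sites of SOX factors, as is the related string AACAAT. Capitals would mark a match, and neither stretch holds any. Rab6b (chr9:103111954-103112073, plus strand) has 82.5% G and C in this stretch and Rab6a (chr7:100607466-100607585, plus strand) 59.2%.
Rab6b: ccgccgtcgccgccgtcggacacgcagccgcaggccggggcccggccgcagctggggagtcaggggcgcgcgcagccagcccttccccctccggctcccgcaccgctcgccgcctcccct
Rab6a: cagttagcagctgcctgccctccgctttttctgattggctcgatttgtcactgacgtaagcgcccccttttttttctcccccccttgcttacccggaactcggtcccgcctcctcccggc

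Rab39b, a Rab of neurons that takes part in glutamate receptor traffic, was lower as well. Its signals were 5.79, 6.19 and 6.10 in wild type and 4.99, 4.74 and 5.001 in the Sox10 LacZ/+ line, where all arrays lay below the dim limit. The difference was −1.12 (SE 0.12, adjusted p 0.000636 by limma), and a second probe set with a dim mean gave −0.42. With both averaged the difference was −0.77, under 2-fold, and passed (adjusted p by limma 0.00041 to 0.0301 under every alternative). The gene lies on the X chromosome. The lines also differed in Xist (4.74 to 4.87 in wild type and 11.02 to 11.10 in Sox10 LacZ/+) and in the Y-linked genes Kdm5d, Eif2s3y and Uty, which passed with differences of −4.18, −4.86 and −4.92. The X chromosome as a whole had a median difference of −0.005 over 899 genes, and of −0.03 over the 440 above the dim limit. The other X-linked members Rab9 (−0.29), Rab9b (−0.15) and Rab33a (0.07) did not pass. The part of this in the Rab39b result was not tested. Its relative Rab39 was dim in both lines, at 3.57 to 3.77 in wild type and 3.59 to 3.67 in the Sox10 LacZ/+ line, and differed by −0.07.

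Rab2b, a Rab of transport between the endoplasmic reticulum and the Golgi, read 10.04, 9.93 and 10.09 in wild type and 9.25, 9.32 and 9.42 in the Sox10 LacZ/+ line. The groups did not overlap, and the signal fell to 61.9% of wild type, a difference of −0.69 (SE 0.08, adjusted p 0.000925 by limma). Rab2a, its relative with a like role, read 11.47, 11.36 and 11.58 against 11.39, 11.41 and 11.41, a difference of −0.07 with overlapping arrays.

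The 3 Golgi-group members that rose did so by less than 1.5-fold. Rab36, which binds proteins of the RILP family, rose from 6.60, 6.67 and 6.79 to 7.17, 7.23 and 7.08, a difference of 0.48 (SE 0.08, adjusted p 0.00669 by limma). Rab30, a Golgi Rab, rose from 8.32, 8.03 and 8.43 to 8.77, 8.72 and 8.73, a difference of 0.47 (SE 0.11, adjusted p 0.0232 by limma). Leaving out wild-type replicate 1 or any Sox10 LacZ/+ array ended the call of Rab30, with adjusted p of 0.058 to 0.0914 (0.008 to 0.114 under every alternative).

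Rab43, another Golgi Rab, was tight within each line, at 7.25, 7.27 and 7.24 against 7.62, 7.69 and 7.62, a difference of 0.39 (SE 0.07, adjusted p 0.00702 by limma). It lies on chromosome 6, where genes above the dim limit had a median difference of 0.24 against 0.007 over all such genes, and 33.7% of them rose, against 10.5% of all such genes. The part of this in the Rab43 result was not tested. The other members on chromosome 6, Rab7 (0.05) and Rab19 (−0.14), did not pass.

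The remaining Golgi-group members did not pass. Rab1a and Rab1b, which serve transport from the endoplasmic reticulum to the Golgi read 12.34 ± 0.11 and 11.74 ± 0.05 in wild type (SD, n = 3 each), with differences of −0.15 (95% confidence interval −0.33 to 0.04) and 0.03 (−0.13 to 0.20). Rab18, a Rab of the endoplasmic reticulum and lipid droplets, and Rab33b, which acts at the Golgi and in autophagy, differed by −0.40 and −0.41. The wild-type spread of both was wide, with SDs of 0.29 and 0.31, and the lowest wild-type array was replicate 2 in both. When it was left out both passed, with differences of −0.53 and −0.58 (adjusted p 0.0162 and 0.00718 by limma; under every alternative 0.0162 to 0.281 and 0.00718 to 0.315).

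**Figure D2:**
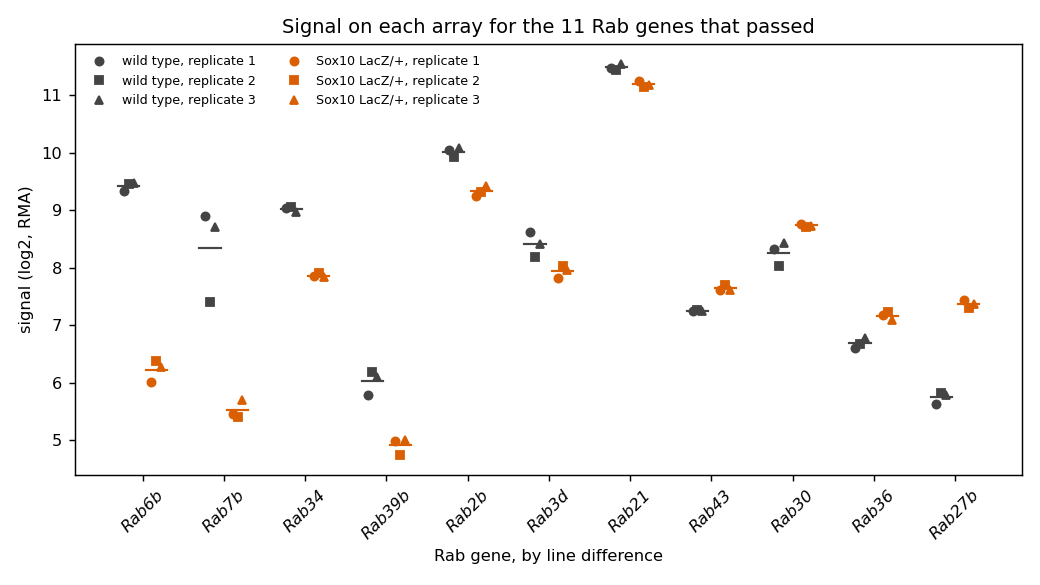
Signal on each array (log2, RMA values, y axis) for the 11 Rab genes that passed, in order of their difference (x axis), with wild-type arrays in grey, Sox10 LacZ/+ arrays in orange, a symbol per replicate number and a bar at each mean. The lines do not overlap for any of these genes, and wild-type replicate 2 lies far below the other wild-type arrays for Rab7b (7.41 against 8.91 and 8.70).

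Among 7 Rabs of late endosomes, lysosomes and autophagy, Rab7b fell and 6 did not pass, where 13.4% of all genes passed. Rab7b (Entrez 226421; chromosome 1) had signals of 8.91, 7.41 and 8.70 in wild type and of 5.46, 5.40 and 5.71 in the Sox10 LacZ/+ line. Wild-type replicate 2 was the low array of its group, yet it lay above every Sox10 LacZ/+ array. The difference was −2.82 (SE 0.35, 95% confidence interval −3.62 to −2.01, adjusted p 0.00119 by limma) and −3.28 without wild-type replicate 2. The gene passed with each array left out in turn and did not pass without variance moderation (adjusted p 0.0527; 3.04e-06 to 0.0527 under every alternative).

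Rab7, the Rab of late endosome maturation and fusion with lysosomes, read 12.52, 12.65 and 12.48 in wild type and 12.64, 12.61 and 12.57 in the Sox10 LacZ/+ line. The arrays overlapped, and the difference was 0.05 (95% confidence interval −0.12 to 0.23, adjusted p 0.74 by limma). Rab9, which serves transport from late endosomes to the Golgi, differed by −0.29 (adjusted p 0.0715 by limma) with arrays that did not overlap, from 9.30 to 9.56 in wild type and from 9.12 to 9.20 in the Sox10 LacZ/+ line. Rab9 passed without wild-type replicate 1 (adjusted p 0.0423; 0.0423 to 0.217 under every alternative). Rab24 and Rab12, both tied to autophagy, and Rab9b differed by −0.10, −0.11 and −0.15, and Rab29, a partner of the kinase LRRK2, by 0.07.

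Of 15 Rabs of early and recycling endosomes, Rab21 fell and 14 did not pass, beside 13.4% of all genes that passed. Rab21, an early endosome Rab involved in integrin traffic, read 11.47, 11.45 and 11.55 in wild type and 11.24, 11.15 and 11.18 in the Sox10 LacZ/+ line. The arrays did not overlap, and the difference was −0.30 (SE 0.07, adjusted p 0.0296 by limma). It lost its call on leaving out any array but wild-type replicate 2 (highest adjusted p 0.121; 0.00619 to 0.121 under every alternative). Rab21 was outside the rule for named genes and was singled out after its value was seen.

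The core Rabs of early endosomes and recycling did not pass. Rab5a, Rab5b and Rab5c, which organise early endosomes, differed by −0.20, 0.04 and −0.13, and Rab11a and Rab11b, which organise recycling endosomes, by −0.10 and −0.01. The 95% confidence intervals were −0.51 to 0.12 for Rab5a, −0.13 to 0.22 for Rab5b, −0.31 to 0.05 for Rab5c, −0.38 to 0.19 for Rab11a and −0.20 to 0.17 for Rab11b. Rab14, Rab22a and Rab4a, all of early and recycling endosomes, differed by −0.03, −0.03 and 0.09. Rab31, a relative of Rab22a, read 11.29, 10.96 and 11.45 in wild type and 10.98, 10.998 and 10.94 in the Sox10 LacZ/+ line. Wild-type replicate 2 fell within the Sox10 LacZ/+ range, and the difference of −0.26 (adjusted p 0.241 by limma) did not pass, whereas without that array it was −0.40 and passed (adjusted p 0.0114; 0.0114 to 0.477 under every alternative).

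Positive values among the endosomal members that did not pass were led by Rab17, a Rab of polarised cells (0.32, adjusted p 0.14 by limma), and Rab35, a Rab of fast recycling (0.26, adjusted p 0.0746; 0.0478 with dim genes left out, and 0.0478 to 0.242 under every alternative). Neither gene's arrays overlapped. Without wild-type replicate 2 Rab17 passed with 0.45 (adjusted p 0.00748; 0.00748 to 0.332 under every alternative). Rab20 was on the negative side (−0.23, adjusted p 0.0897), with a second probe set at −0.17, and Rab25 (−0.17) and Rab15 (0.12) completed the group.

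Of 12 Rabs of secretion and the plasma membrane, Rab27b rose, Rab3d fell and 10 did not pass, where 13.4% of all genes passed. Rab27b (Entrez 80718; chromosome 18) read 5.63, 5.83 and 5.79 in wild type, slightly above the dim limit, and 7.45, 7.31 and 7.37 in the Sox10 LacZ/+ line. The groups were well apart, with means of 5.75 ± 0.11 and 7.38 ± 0.07 (SD, n = 3 each) and a difference of 1.63 (SE 0.08, adjusted p 7.66e-06 by limma). Its relative Rab27a, which tethers melanosomes to myosin through melanophilin, passed in the same direction with 0.74 (adjusted p 0.0216), Rab32 did not pass (0.02), and Rab38 was lower by 1.30. Rab27a lost its call on leaving out any array but wild-type replicate 2 (highest adjusted p 0.0854; 0.000223 to 0.146 under every alternative).

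Rab3 proteins act on secretory granules and synaptic vesicles. Rab3d, the form of exocrine and mast cell granules, read 8.62, 8.19 and 8.41 in wild type and 7.83, 8.03 and 7.96 in the Sox10 LacZ/+ line, a difference of −0.47 (SE 0.12, adjusted p 0.0383 by limma). A second probe set gave −0.28. The call of Rab3d was lost on leaving out any array but wild-type replicate 2 (highest adjusted p 0.142, and 0.00634 to 0.158 under every alternative). It was also lost with the probe sets averaged, with the replicate block, without variance moderation and at the 0.01 threshold.

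The other Rab3 genes did not pass. Rab3a, the synaptic vesicle form, differed by 0.08 (95% confidence interval −0.10 to 0.25) with overlapping arrays, at 8.26 to 8.41 in wild type and 8.39 to 8.48 in the Sox10 LacZ/+ line. Rab3b differed by −0.33 (adjusted p 0.0867 by limma; −0.40 and 0.0275 without wild-type replicate 2, with 0.0275 to 0.247 under every alternative). Rab3c differed by −0.03 on the probe set used and by 0.63 on a second one with a dim mean, so its probe sets disagree.

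Among the Rabs that carry cargo from the Golgi to the plasma membrane, Rab8b (0.26, adjusted p 0.0646 by limma) and Rab10 (−0.28, adjusted p 0.0662) had opposite signs, each with arrays that did not overlap. Rab8a, which also serves the cilium, differed by 0.06 and Rab13, a Rab of cell junctions, by −0.14. Rab26 and Rab37, both of secretory granules, differed by −0.41 (adjusted p 0.0731) and 0.12, with Rab37 dim in both lines. Rab44 differed by −0.12. Without wild-type replicate 2 Rab8b, Rab10 and Rab26 passed (adjusted p 0.0376, 0.0175 and 0.0311; under every alternative 0.0328 to 0.226, 0.0175 to 0.219 and 0.0311 to 0.236).

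Among 3 Rabs tied to cilia, Rab34 fell and the others did not pass, beside 13.4% of all genes that passed. Rab34, which acts at the Golgi and in cilium formation, read 9.05, 9.05 and 8.97 in wild type and 7.85, 7.90 and 7.83 in the Sox10 LacZ/+ line. The arrays of each line lay close together (SD 0.05 and 0.04), with no overlap, and the difference was −1.16 (SE 0.07, adjusted p 2.06e-05 by limma), or 44.8% of the wild-type signal. Rab23, which limits Hedgehog signalling, and Rab28, a Rab of photoreceptor cilia, differed by 0.19 and 0.35 and did not pass. Rab28 passed without wild-type replicate 3 (adjusted p 0.0498; 0.0498 to 0.35 under every alternative). Of the less studied members, Rab40b, Rab40c and the dim Rab42 differed by −0.11, −0.06 and −0.29 and did not pass.

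The start regions of Rab34 and Rab21 are shown because they alone among the start regions of the passing members held 1 of the letter strings searched. Capitals mark the match, 53 bases before a transcript start of Rab34 (CATGTG, chr11:78188307-78188426, plus strand) and 30 bases before one of Rab21 (CACGTG, chr10:115315592-115315711, minus strand). The start used for Rab34 is the outermost of its gene, while that used for Rab21 lies inside its gene.
Rab34: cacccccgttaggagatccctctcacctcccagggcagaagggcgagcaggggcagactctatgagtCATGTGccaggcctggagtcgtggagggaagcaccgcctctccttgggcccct
Rab21: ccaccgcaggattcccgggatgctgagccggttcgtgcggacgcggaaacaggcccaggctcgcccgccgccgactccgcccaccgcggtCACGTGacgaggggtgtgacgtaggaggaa

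RefSeq start regions of 300 bases, from 250 before to 50 after the start, were at hand for 45 of the 55 members and for 7 of the 11 that passed, 56 regions in all. CACGTG was found on either strand in 8.93% of the members' regions and in 7.15% of all 32851 regions of that length. CATGTG was found in 10.7% against 14.2%, ACAAAG in 5.36% against 18.7% and AACAAT in 7.14% against 10.7%. Neither of the last strings occurred in a region of a member that passed, but these regions were only 11. No region was at hand for the passing members Rab7b, Rab27b, Rab30 and Rab36. The members' regions had a median of 61.5% G and C against 52.7% over all regions. A second start region of Rab34 held none of the strings. A match is a description of the letters and not of a bound site.

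Related Rab genes were compared directly within each array for 22 pairs, by setting the difference between the members of a pair in one line against that in the other. With 3 against 3 arrays an exact 2-sided permutation test cannot give a p below 0.1, or an adjusted p below 0.2 here, so no pair can pass. The widest gaps were those of Rab6b to Rab6a (−3.10, Sox10 LacZ/+ arrays at −3.28, −2.92 and −3.09 from the wild-type mean) and of Rab7b to Rab7 (−2.87, arrays at −2.97, −2.99 and −2.65). Rab39b to Rab39 gave −1.05 and Rab2b to Rab2a −0.63. Rab39 was dim on all arrays and Rab39b on the Sox10 LacZ/+ arrays, so a fall of Rab39 could not have been read and the size of that gap is uncertain. All 4 of these pairs had arrays that did not overlap and a permutation p of 0.1, the smallest possible (adjusted p 0.2, exact test). The groups did not overlap in 11 of the 22 pairs, Rab3d to Rab3a (−0.54) among them. The share of all genes whose arrays did not overlap, 31.6%, is for single genes and not for pairs.

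**Figure D3:**
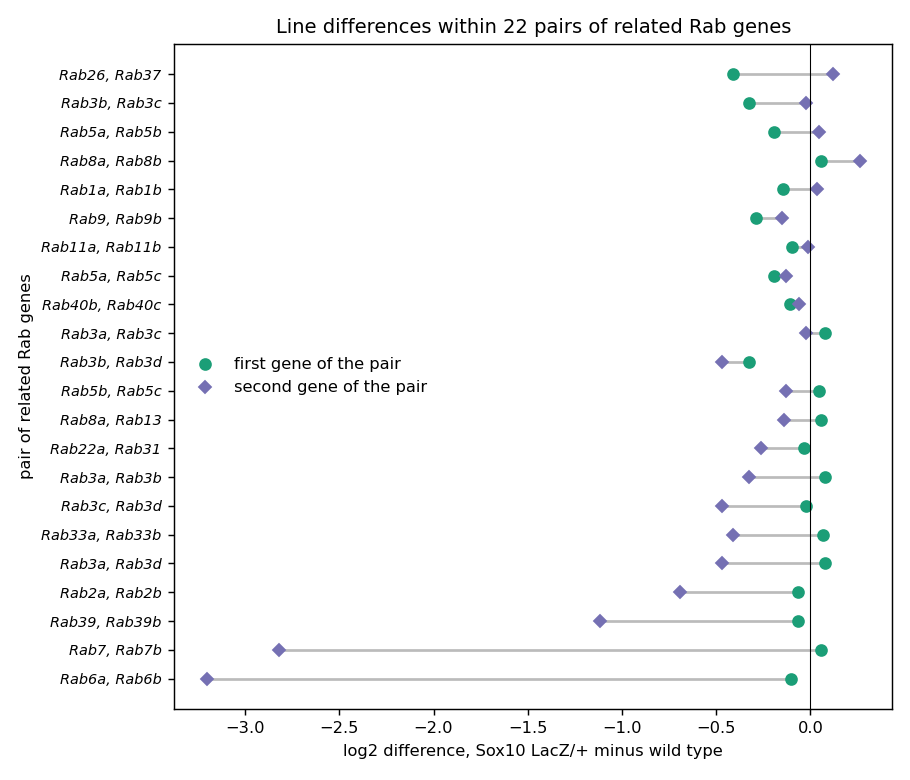
Differences between the lines, Sox10 LacZ/+ minus wild type on a log2 scale (x axis), for both genes of 22 pairs of related Rabs (y axis), ordered by the gap within the pair. In the lowest 4 pairs the first gene lies near 0 (Rab6a −0.11, Rab7 0.05, Rab39 −0.07, Rab2a −0.07) and the second well below it.

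Genes of proteins that act on or with Rabs, and genes of Rab-like GTPases, were described as 5 lists, beside the 13.4% of all genes that passed. Of 10 genes for lipid anchors of proteins and for recycling of Rabs through the cytosol, Rabggta, the alpha subunit of Rab geranylgeranyl transferase, fell (−0.49, adjusted p 0.00423 by limma) and 9 did not pass (median −0.01). Of 39 genes for exchange factors 2 rose, 4 fell and 33 did not pass (median −0.004), or 15.4% against 13.4% of all genes. All 39 were above the dim limit, and 18.7% of all genes above that limit passed. The largest falls were those of Als2cl (−0.95, SE 0.17), Rin3 (−0.83, SE 0.10) and Rin2 (−0.74, SE 0.09). Their relatives Rin1 (−0.03) and Rinl (−0.02) did not pass. Als2cl lost its call without variance moderation (adjusted p 0.1; 0.00523 to 0.1 under every alternative).

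Rin3 read 8.34, 8.62 and 8.28 in wild type and 7.59, 7.56 and 7.61 in the Sox10 LacZ/+ line, and Rin2 8.99, 8.76 and 9.04 against 8.17, 8.20 and 8.20. Neither gene's arrays overlapped. Dennd4b, an exchange factor gene for Rab10, fell by 0.34, and Dennd2c (0.48) and Ric1 (0.37), a subunit gene of the Rab6 exchange factor, rose. Dennd4b and Ric1 each lost the call on leaving out any Sox10 LacZ/+ array (highest adjusted p 0.0786 and 0.0609; under every alternative 0.00741 to 0.0786 and 0.00558 to 0.0609). Without wild-type replicate 2, 14 of the exchange factor genes passed, and 19.0% of all genes did.

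Of 38 genes for proteins with a TBC domain, many of which stimulate GTP hydrolysis, 2 rose, 6 fell and 30 did not pass (median −0.02). That is 21.1% of the list against 13.4% of all genes, and 15.8% lower against 5.92%. Above the dim limit 21.6% of the list passed, against 18.7% of all such genes. The share that fell was not taken above that limit alone. Usp6nl fell by 0.70 (SE 0.07, adjusted p 0.000484 by limma), from 10.15, 10.20 and 10.16 to 9.53, 9.39 and 9.50, with no overlap. Tbc1d23 (−0.59), which bridges vesicles to golgins, Tbc1d10a (−0.52), Tbc1d4 (−0.48), which acts in glucose transporter traffic, and Tbc1d8b (−0.30) fell too, and Tbc1d16 (0.51) and Tbc1d8 (0.41) rose. Tbc1d23 lost its call without variance moderation (adjusted p 0.0634; 0.00131 to 0.0634 under every alternative). The list had 4 calls without wild-type replicate 1 or Sox10 LacZ/+ replicate 3 and 5 without wild-type replicate 3 or Sox10 LacZ/+ replicate 1. Tbc1d10a did not pass without wild-type replicate 1 or Sox10 LacZ/+ replicate 1 or 3, Tbc1d8 without these or wild-type replicate 3, and Tbc1d8b without any array but wild-type replicate 2 (highest adjusted p 0.094, 0.0823 and 0.135; under every alternative 0.00875 to 0.122, 0.00411 to 0.0823 and 0.022 to 0.135).

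Of 51 genes for Rab effectors and Rab kinases 7 rose, 3 fell and 41 did not pass (median −0.01). That is 19.6% of the list against 13.4% of all genes, and 13.7% higher against 7.46%. Above the dim limit 22.2% of the list passed, against 18.7% of all such genes, and 15.6% rose, against 10.5%. Lrrk2, a kinase gene whose protein phosphorylates several Rabs, read 7.39, 6.85 and 7.55 in wild type and 8.41, 8.39 and 8.36 in the Sox10 LacZ/+ line, a rise of 1.13 (SE 0.16, adjusted p 0.00287 by limma). It lost its call without variance moderation (adjusted p 0.0645; 0.000207 to 0.0645 under every alternative). Sytl2, an effector gene of Rab27 proteins, rose from 10.10, 9.96 and 10.24 to 11.07, 11.003 and 11.04, by 0.94 (SE 0.09, adjusted p 0.000249 by limma). Micall2, an effector gene of Rab8 and Rab13 at cell junctions, fell from 8.77, 8.35 and 8.73 to 7.33, 7.17 and 7.23, by 1.37 (SE 0.12, adjusted p 0.00018 by limma). None of these 3 genes had overlapping arrays.

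Rims1 (0.48), an effector gene of Rab3, and Rilpl1 (0.47) rose, as did Rbsn (0.46), an effector gene of Rab4 and Rab5 that lies on chromosome 6. Gcc2 (−0.56), a golgin gene, and Eea1 (−0.33), the gene of an early endosome tether that binds Rab5, fell. Rims1 and Gcc2 lost the call without Sox10 LacZ/+ replicate 2 or 3, and Rbsn without these or wild-type replicate 1 (highest adjusted p 0.0717, 0.0609 and 0.0791; under every alternative 0.00403 to 0.0849, 0.00526 to 0.0894 and 0.00544 to 0.0849). Eea1 kept its call only without wild-type replicate 2 or 3 (highest adjusted p 0.118; 0.0154 to 0.118 under every alternative). Effector calls numbered 5 without Sox10 LacZ/+ replicate 2 and 4 without replicate 3. Of 6 Rab-like GTPase genes outside the family rule, Ift22 rose (0.38, adjusted p 0.0121 by limma) and 5 did not pass. Ift22 lost its call without Sox10 LacZ/+ replicate 1 or 3 (highest adjusted p 0.0672; 0.00732 to 0.0672 under every alternative).

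**Figure D4:**
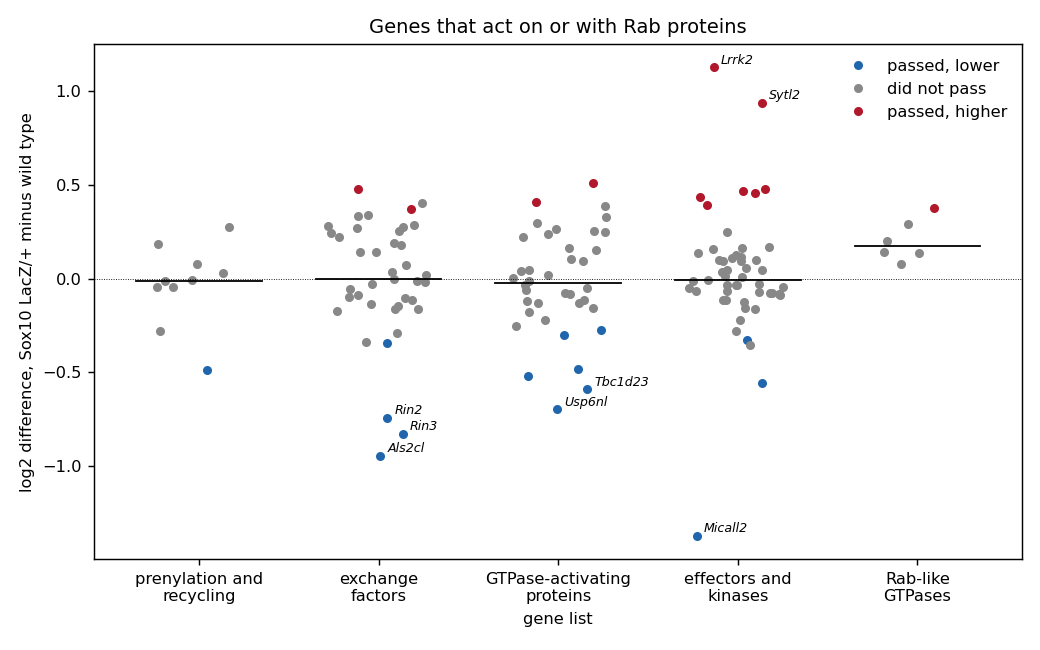
Differences between the lines, Sox10 LacZ/+ minus wild type on a log2 scale (y axis), for the genes of 5 lists (x axis). The lists hold proteins that act on or with Rabs, and Rab-like GTPases. Each point is 1 gene, a bar marks the median of each list, and names mark genes that passed with at least 1.5-fold. All 5 medians lie between −0.02 and 0.17, and Micall2 and Lrrk2 lie beyond 2-fold.

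As arrays read RNA from the whole culture, fewer cells with a transcript and less RNA per cell cannot be told apart for any of these genes.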

How the data were processed

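The 6 arrays (3 of each line) were deposited as 1 table of log2 values for 41345 probe sets. The authors made these log2 values with RMA, which corrects background, normalizes the arrays together and summarises each probe set, per the submitters' processing notes, which also name Partek. The sources used here give neither versions nor settings. Of the probe sets, 23521 carried 1 gene symbol, 1814 several and 16010 none. Only those with 1 symbol were used, and of several probe sets for a gene (1082 genes) that with the highest mean signal on the 6 arrays was kept. Dim genes stayed in. Gene positions come from RefSeq on GRCm38.p6.

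All 22180 genes were fitted together by lmFit and eBayes of limma 3.58.1 under R 4.3.3 (2-sided, 4 residual degrees of freedom, no replicate block), a script that was tested on simulated data. Arrays have no read depth, so their number limits the precision. Deviations of arrays with the same replicate number did not correlate (r of 0.007, 0.016 and −0.004). No large effect shared by a number was thus seen, but the labels do not say whether the numbers pair arrays.

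The members, the role groups and the gene lists were chosen with earlier results of these data known. Text names every passing member of at least 1.5-fold, the 4 largest others that passed, the 6 brightest that did not, the relatives of passing members, and up to 5 passing genes per list and direction. Other members are given by role group, so that each is accounted for. As alternatives the arrays were centred on their medians or quantile normalized, dim genes were dropped, probe sets of a gene were averaged, eBayes was run with trend or robust or replaced by unmoderated variances, array weights or a replicate block were added, the threshold was set at 0.01, and each array was left out.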

Additional observations from a re-analysis of the deposited data

How the results depend on the processing

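None of the 11 members that passed changed sign under any alternative run. Rab6b, Rab34, Rab39b, Rab2b, Rab27b, Rab36 and Rab43 passed under each of them at the 0.05 threshold. With array weights 13 members were lower, as without wild-type replicate 2, and the calls gained were Rab10, Rab17, Rab18, Rab26, Rab31, Rab33b, Rab3b and Rab8b in both fits. With dim genes left out 6 were higher and 9 lower (Rab10, Rab35, Rab8b and Rab9 gained), and 21.3% of all genes tested passed. With each array left out in turn, 3 to 6 members were higher, 5 to 13 were lower, and 5 were at least 2-fold. Without variance moderation 3 were higher and 5 lower (Rab30, Rab3d and Rab7b lost), and 7.74% of all genes passed. With the replicate block 4 were higher and 5 lower (Rab21 and Rab3d lost), and the GTPase-activating list had 5 calls. Whether the replicate numbers pair arrays is not known from the labels.

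Over all genes, calls numbered 1717 without variance moderation, 1588 at an adjusted p below 0.01, and 1768 to 4222 with an array left out. For the 5 lists together, with 26 calls, these were 17, 13 and 13 to 42. The anchor and recycling list had 2 calls with dim genes left out or array weights, and 1 to 2 with an array left out. The exchange factor list had 14 with array weights, and 4 to 14 with an array left out. The GTPase-activating list had 5 without moderation, 4 below 0.01, and 4 to 11 with an array left out. The effector list had 5, 4, and 4 to 13 in the same order. Rab-like genes had 2 with array weights, 0 below 0.01 and 0 to 2 with an array left out. Values near the dim limit, as for Rab39b and Rab27b, depend on array background.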
